A study of Mus musculus with 35 samples.

Results

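The comparison described here set the effect of deleting Flcn in the newborn mouse kidney against that of the Flcn/Tfe3 double knockout, and asked which changes of Flcn loss were kept or weakened without Tfe3. It used 28 of the 35 RNA libraries of the series, chosen by their genotype labels, and covered the 13615 genes that passed a filter on low counts in these libraries. Each effect was measured relative to control kidneys from the same cross, and the quantity of interest was the Flcn KO effect minus the Flcn/Tfe3 DKO effect, gene by gene. Libraries of the Flcn/Tfeb cross were used only in an alternative fit of all 35 libraries.

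All mice were on the C57BL/6 background and kidneys of both sexes were collected at postnatal day 2. From the first cross came 5 Flcn-KO libraries (floxed Flcn removed by Ksp-Cre, hereafter Flcn KO) and 5 control_Flcn libraries. The Flcn-Tfe3 cross contributed 10 libraries labelled DKO_Flcn-Tfe3 (the same kidney deletion of Flcn in mice carrying the germline Tfe3 null allele, hereafter Flcn/Tfe3 DKO) and 8 control libraries of that cross, whose Tfe3 and Cre status the labels do not give. Hence each DKO effect may stand for the loss of Flcn on a Tfe3 null background or, where controls carried Tfe3, for the loss of both genes together, and the difference of the effects is read with the same limit. Counts of the second cross were deposited as separate tables, named invivo with 6 DKO and 3 control libraries and CDM with 4 and 5, and the names of the tables are not explained in the sources used here. Ksp-Cre is driven by the Cdh16 promoter and acts in collecting duct, distal tubule and thick ascending limb, whereas the libraries hold RNA of the whole kidney. A lower count may therefore stand for fewer cells of a type or for less RNA per cell, which cannot be told apart.

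Folliculin, the product of Flcn, acts with FNIP partners on the Rag GTPases of the lysosomal surface and so lets mTORC1 phosphorylate TFEB and TFE3, which keeps these transcription factors out of the nucleus. Without folliculin both enter the nucleus and act on genes of lysosomes, autophagy and metabolism, many of which hold the CACGTG motif near their start. Germline variants of FLCN cause Birt-Hogg-Dubé syndrome in people, which affects skin, lung and kidney, and deletion of Flcn in the mouse kidney leads to cysts.

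Libraries held 1689378 to 4239356 reads counted on genes. A gene with no read may still have had up to 3 counts, equal to 0.708 to 1.78 CPM (counts scaled to a common library total) depending on the library, a limit that covers counting error only. Kidney markers were present throughout, and Cdh16 itself was at 307 ± 32.5 CPM (SD, n = 5) in Flcn controls, 316 ± 40.2 (SD, n = 5) in Flcn KO, 252 ± 18.3 (SD, n = 8) in controls of the Flcn-Tfe3 cross and 254 ± 20.7 (SD, n = 10) in Flcn/Tfe3 DKO. Of the markers of the cell types examined, Hbb-y and Hbb-bh1 of the red blood cell were at 0 in all 28 libraries. Mitochondrial counts made up 4.88% to 11.1% of Flcn controls and 7.33% to 11.1% of Flcn KO, but 1.79% to 3.56% of the invivo libraries and 2.72% to 7.80% of the CDM libraries. Among the Flcn controls, replicates 4 and 5 held 4.88% and 4.93%, against 9.98% to 11.1% in the others. Their reads aligned to several places were 36.7% and 37.8%, against 41.7% to 42.0%. Xist exceeded 10 CPM in 1 of 5 Flcn controls, 1 of 5 Flcn KO, 6 of 8 controls and 3 of 10 DKO libraries of the Flcn-Tfe3 cross, so females were spread unevenly over the groups. Of these 6 controls, invivo replicate 1 held 10.1 CPM, just above the limit, so its sex is uncertain. The other libraries of that cross above the limit held 174 to 1200 CPM.

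The targeted genes did not fall in these 3′ libraries. Flcn had log2 fold changes of 0.08 ± 0.22 (SE) in Flcn KO and 0.20 ± 0.17 (SE) in Flcn/Tfe3 DKO. Tfe3 ranged from 12.6 to 24.5 CPM in the 10 DKO libraries and from 15.3 to 25.3 in their 8 controls (log2 fold change -0.09 ± 0.13, SE). Reads of this kit come from the 3′ end of a transcript, which need not lie in the altered part of either gene, so these values check neither genotype label. Tfeb had log2 fold changes of -0.17 ± 0.28 (SE) in Flcn KO and 0.09 ± 0.21 (SE) in DKO, and none of the 7 genes of the folliculin complex and the MiT/TFE family was called in either effect (edgeR, with 1 lower in Flcn KO and 1 higher in DKO before adjustment).

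Promoters are shown first for 5 called genes, chosen because they hold the motif CACGTG. Aqp6, Mlph and Ctsd rose in both genotypes, while Gdf15 and Slc20a1 were called in Flcn KO alone. Each sequence gives the 250 bases before the RefSeq start site (assembly GRCm38.p6), written 5′ to 3′ on the strand of the gene, with the palindrome CACGTG in capitals.
Aqp6, chr15:99600950-99601199, plus strand: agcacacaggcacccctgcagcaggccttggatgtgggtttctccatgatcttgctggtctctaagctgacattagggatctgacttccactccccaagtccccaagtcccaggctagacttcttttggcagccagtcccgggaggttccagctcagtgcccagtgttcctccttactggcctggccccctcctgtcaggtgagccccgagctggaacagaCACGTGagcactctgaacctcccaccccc
Mlph, chr1:90914850-90915099, plus strand: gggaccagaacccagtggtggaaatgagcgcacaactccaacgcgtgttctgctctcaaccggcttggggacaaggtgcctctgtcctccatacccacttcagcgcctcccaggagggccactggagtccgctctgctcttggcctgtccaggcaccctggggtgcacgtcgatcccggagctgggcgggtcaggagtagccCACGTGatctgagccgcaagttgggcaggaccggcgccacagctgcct
Ctsd, chr7:142387828-142388077, minus strand: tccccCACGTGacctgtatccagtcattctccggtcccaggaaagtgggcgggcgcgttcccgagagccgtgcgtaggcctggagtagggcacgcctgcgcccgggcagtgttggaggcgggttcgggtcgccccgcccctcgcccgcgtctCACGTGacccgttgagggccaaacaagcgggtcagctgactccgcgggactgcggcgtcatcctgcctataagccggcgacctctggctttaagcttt
Gdf15, chr8:70632096-70632345, minus strand: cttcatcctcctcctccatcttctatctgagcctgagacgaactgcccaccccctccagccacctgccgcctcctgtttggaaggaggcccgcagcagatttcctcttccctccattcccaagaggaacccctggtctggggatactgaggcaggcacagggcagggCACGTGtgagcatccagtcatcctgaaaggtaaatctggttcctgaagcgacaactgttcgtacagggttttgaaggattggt
Slc20a1, chr2:129198523-129198772, plus strand: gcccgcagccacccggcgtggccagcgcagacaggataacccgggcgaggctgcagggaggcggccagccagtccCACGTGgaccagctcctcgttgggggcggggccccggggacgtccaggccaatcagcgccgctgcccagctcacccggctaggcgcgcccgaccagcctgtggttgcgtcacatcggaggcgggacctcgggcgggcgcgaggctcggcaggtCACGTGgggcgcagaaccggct

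The motif began 29 bases before the start site of Aqp6, 48 before that of Mlph, 245 and 98 before that of Ctsd, 83 before the second of 2 listed starts of Gdf15 and 175 and 22 before the first of 2 listed starts of Slc20a1. In windows from 250 bases before to 50 after each start, CACGTG (read on both strands, being its own complement) was in 7.15% of all 32851 RefSeq promoters and in 9.58% of those of the genes tested. Of the 31 genes that rose in both effects, 25 matched the table, and 7 of their 29 promoters held the motif (24.1%), namely those of Aqp6, Ctsd, Gpx6, Mfsd4a, Mlph, Rab27a and Rusc1. It was in 3 of 26 promoters of genes that rose in Flcn KO alone (11.5%, 19 of 26 genes matched) and in 1 of 27 of those that rose in Flcn/Tfe3 DKO alone (3.70%, 19 of 28 genes matched). A related motif, CATGTG on either strand, was in 14.2% of all promoters, in 8.41% of those of the genes tested and in 10.3%, 19.2% and 11.1% of these groups. Promoters of Rragd and Ckb, called in both effects, and of Gpnmb, Maoa and Atp6v1g3, called in Flcn KO alone, did not hold CACGTG in this window. These shares are descriptions without a test, and a match does not show that a factor binds there.

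In Flcn KO kidneys 65 of the 13615 genes were called (0.477%), 57 higher (0.419%) and 8 lower (0.0588%), at a Benjamini-Hochberg adjusted p under 0.05 in the quasi-likelihood test of edgeR. In Flcn/Tfe3 DKO kidneys the number was also 65 (0.477%), 59 higher (0.433%) and 6 lower (0.0441%). That count was 109 (73 higher and 36 lower) without invivo control replicate 3, and the CDM table alone gave 239 higher and 642 lower. The invivo table alone gave 24, 19 higher and 5 lower, and 19 of the 65 calls held there. With Xist as a covariate 45 of the 65 DKO calls and 64 of the 65 Flcn KO calls held. Before adjustment, the Flcn KO effect had a p under 0.05 for 6.63% of the genes, 3.53% higher and 3.10% lower, and the DKO effect for 8.25%, 3.86% higher and 4.38% lower. The effects have no library in common, but they were fitted jointly and share the estimate of the spread. Fitted on its own, the Flcn cross gave 62 calls, 50 of them among the 65, and the Flcn-Tfe3 cross gave 44, all among its 65. Both effects called the same 32 genes, 49.2% of either list, of which 31 were higher and 1, Pck1, was lower. None was called in opposite directions. Of the 65 genes called in Flcn KO, 60 had the same sign in Flcn/Tfe3 DKO, and of the 65 called in DKO, 61 had the same sign in Flcn KO. Over all 13615 genes the signs matched for 6155 (45.2%).

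The difference of the effects itself was called for 0 genes (0% of those tested) by edgeR's quasi-likelihood test, whose smallest adjusted p was 0.337. Before adjustment 1012 genes (7.43%) had a p under 0.05, 521 with a larger (3.83%) and 491 with a smaller value (3.61%) in Flcn KO. That number was 594 without Flcn control replicate 4, 650 without Flcn control replicate 5 and 1372 without invivo control replicate 3. With the mitochondrial share as a covariate it was 607. DESeq2 called 1 gene, Gdf15, as did edgeR with Xist as a covariate. With the CDM table as the only source of DKO libraries and their controls, edgeR called 459 genes for the difference, 346 of them with a larger value in Flcn KO, and with the invivo table alone it called 0. The calls thus depend on the tool, the covariates and the table, and the width of the intervals below shows how large a difference could have been missed.

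The 57 genes that rose in Flcn KO had a median log2 fold change of 1.04 there and 0.71 in Flcn/Tfe3 DKO, where 55 of them were above 0 and 48 had an unadjusted p under 0.05. For 59 of the 65 genes called in Flcn KO the DKO effect was the smaller one in size. Part of that is set by the choice of genes on the Flcn KO effect, so no test is given. Chosen the other way, the 59 genes that rose in DKO had medians of 0.78 in DKO and 0.81 in Flcn KO, and for 37 of the 65 genes called in DKO the Flcn KO effect was the smaller. Over all genes tested the medians were -0.02 and 0.00.

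**Figure D1:**
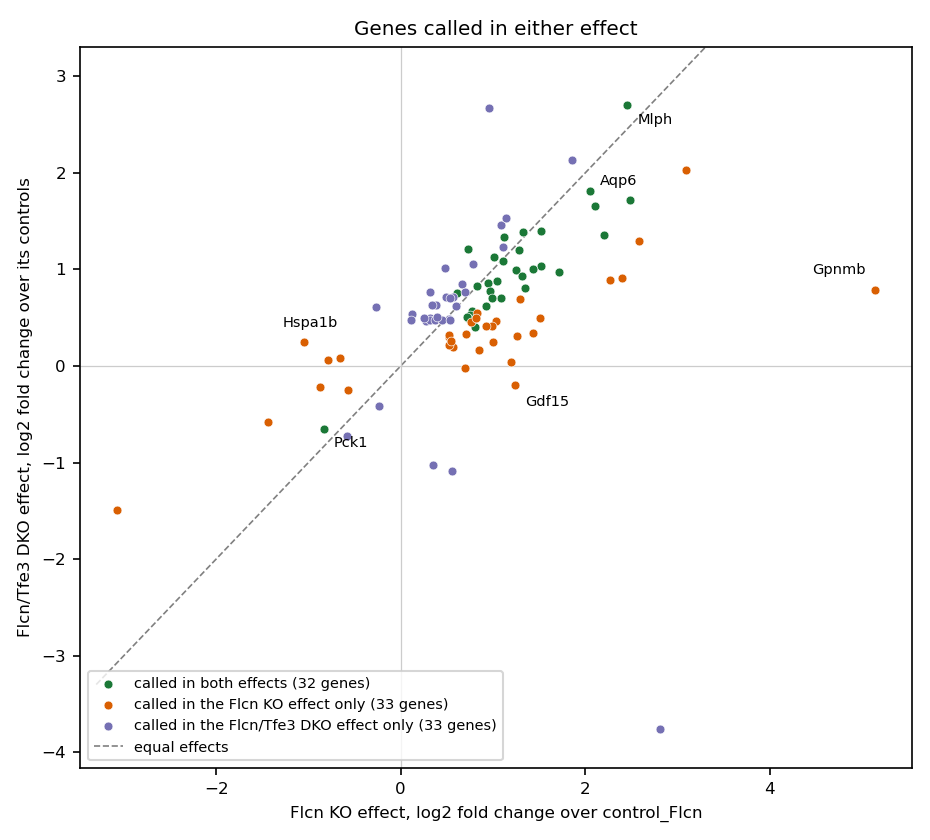
Log2 fold change of each gene called in either effect, with the Flcn KO effect over control_Flcn on the x axis and the Flcn/Tfe3 DKO effect over its controls on the y axis. Each point is a gene, coloured by the effects in which it was called, and the dashed line marks equal effects. Of the 31 genes that rose in both, 25 lie on the side of the larger Flcn KO effect, with a median difference of 0.22, and Gpnmb (5.14 against 0.78) and Gdf15 (1.24 against -0.20) lie far below it.

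Genes of acid secretion and of the collecting duct were among the changes called in both effects. Aqp6, a water and anion channel in vesicles of intercalated cells, is encoded on chromosome 15 from 99601400 to 99605477 (mm10). Flcn controls had 29.0, 32.4, 16.8, 11.7 and 23.6 CPM and Flcn KO kidneys had 104, 83.1, 99.2, 109 and 70.4 CPM. In the Flcn-Tfe3 cross the 8 controls ran from 10.4 to 22.3 CPM (median 14) and the 10 DKO libraries from 25.0 to 73.2 (median 52.6). Every KO and DKO library lay above every control of its own cross. Such a gap was found for 1.54% of all genes in the Flcn cross, 1.71% in the invivo table and 3.41% in the CDM table. The log2 fold change was 2.05 ± 0.24 (SE, adjusted p = 3.56e-06, edgeR) in Flcn KO and 1.81 ± 0.19 (SE, adjusted p = 2.42e-07) in Flcn/Tfe3 DKO, and the difference was 0.24 with a 95% interval from -0.38 to 0.86.

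Atp12a, the catalytic subunit of the non-gastric proton and potassium pump, rose by 1.43 ± 0.16 (SE) on the log2 scale in Flcn KO and by 1.0 ± 0.12 in Flcn/Tfe3 DKO. Its level was 71.5 ± 12.6 CPM (SD, n = 5) against 26.5 ± 4.30 (SD, n = 5) in the Flcn cross and 56.5 ± 6.96 (SD, n = 10) against 28.5 ± 5.78 (SD, n = 8) in the other. The groups did not overlap in either cross. Slc16a7, which carries monocarboxylates, gave 1.29 and 1.20, and Car12, a carbonic anhydrase of the cell surface, gave 0.61 and 0.76. For these 2 genes the interval of the difference ran from -0.30 to 0.47 and from -0.42 to 0.12.

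Of 8 tested proton pump subunits that are restricted to certain tissues, 3 were called higher in Flcn KO and 2 in DKO, with medians of 0.43 and 0.32. Atp6v0d2 was at 22.7, 20.9, 27.2, 26.3 and 22.4 CPM in Flcn controls and at 45.6, 45.2, 54.7, 53.4 and 43.4 in Flcn KO, and at 13 to 32.8 (median 27.3) and 39.6 to 70.2 (median 55.8) in the controls and DKO libraries of the other cross. Without overlap in either cross, it rose by 1.01 ± 0.18 (SE) and 1.13 ± 0.14. Atp6v1c2 rose by 0.73 ± 0.17 and 1.21 ± 0.14, and its difference of -0.48 (95% interval -0.93 to -0.03, unadjusted p = 0.0362) put the larger effect in the Flcn-Tfe3 cross. That gene's call in Flcn KO was lost in 13 of 41 other settings. Atp6v1g3 was called in Flcn KO alone (1.30 ± 0.22, adjusted p = 0.00102, edgeR), with 0.69 ± 0.17 in DKO (adjusted p = 0.0629). Its DKO effect was 1.23 in the invivo table and 0.23 in the CDM table.

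Of 17 intercalated cell markers, 5 were called higher in Flcn KO (Aqp6, Atp6v0d2, Atp6v1g3, Car12 and Rhcg) and 3 in Flcn/Tfe3 DKO (Aqp6, Atp6v0d2 and Car12), none lower. Their medians were 0.61 and 0.34, and 13 and 15 of the 17 were above 0. The summed level of the markers was 631 to 779 CPM in Flcn controls and 1023 to 1177 in Flcn KO. It was 631 to 798 against 850.1 to 1049.9 in the invivo table and 644 to 736 against 825 to 1001 in the CDM table, without overlap in any of the 3 sets. Among 16 principal cell markers 1 was called in Flcn KO (Scnn1b, 0.57, an epithelial sodium channel subunit) and another in DKO (Krt7, 0.47, a keratin), with medians of 0.11 and 0.04. Before adjustment 4 were higher and 1 lower in Flcn KO and 5 higher and 3 lower in DKO, and 8 of 16 lay below 0 in DKO. Aqp2, the water channel that defines principal cells, was at 264.9 to 339.7 CPM in Flcn controls and 170.5 to 269.9 in Flcn KO (log2 -0.49 ± 0.15, SE, adjusted p = 0.218, edgeR) and had -0.40 ± 0.11 in DKO (adjusted p = 0.140). In the CDM table its DKO libraries lay below the controls (191 to 329 CPM against 336 to 422), and in the Flcn cross and the invivo table the groups overlapped.

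Of 11 thick ascending limb markers, Umod, Ptger3 and Sostdc1 rose in both effects and the other 8 were called in neither. The medians were 0.17 and 0.08, with 9 of 11 above 0 in Flcn KO and 6 of 11 in DKO. Umod encodes uromodulin, the main protein of normal urine. Its level was 246, 257, 272, 211 and 250 CPM in Flcn controls and 553, 403, 531, 521 and 446 in Flcn KO, and 141 to 239 (median 189) against 248 to 359 (median 308) in the other cross. No KO or DKO library fell among its controls. The log2 fold changes were 0.99 ± 0.12 and 0.71 ± 0.10 (SE), with a difference of 0.28 (95% interval -0.03 to 0.60). Ptger3, a receptor for prostaglandin E2, gave 1.11 and 1.09, and Sostdc1, a secreted antagonist of BMP and Wnt signals, gave 0.73 and 0.50.

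**Figure D2:**
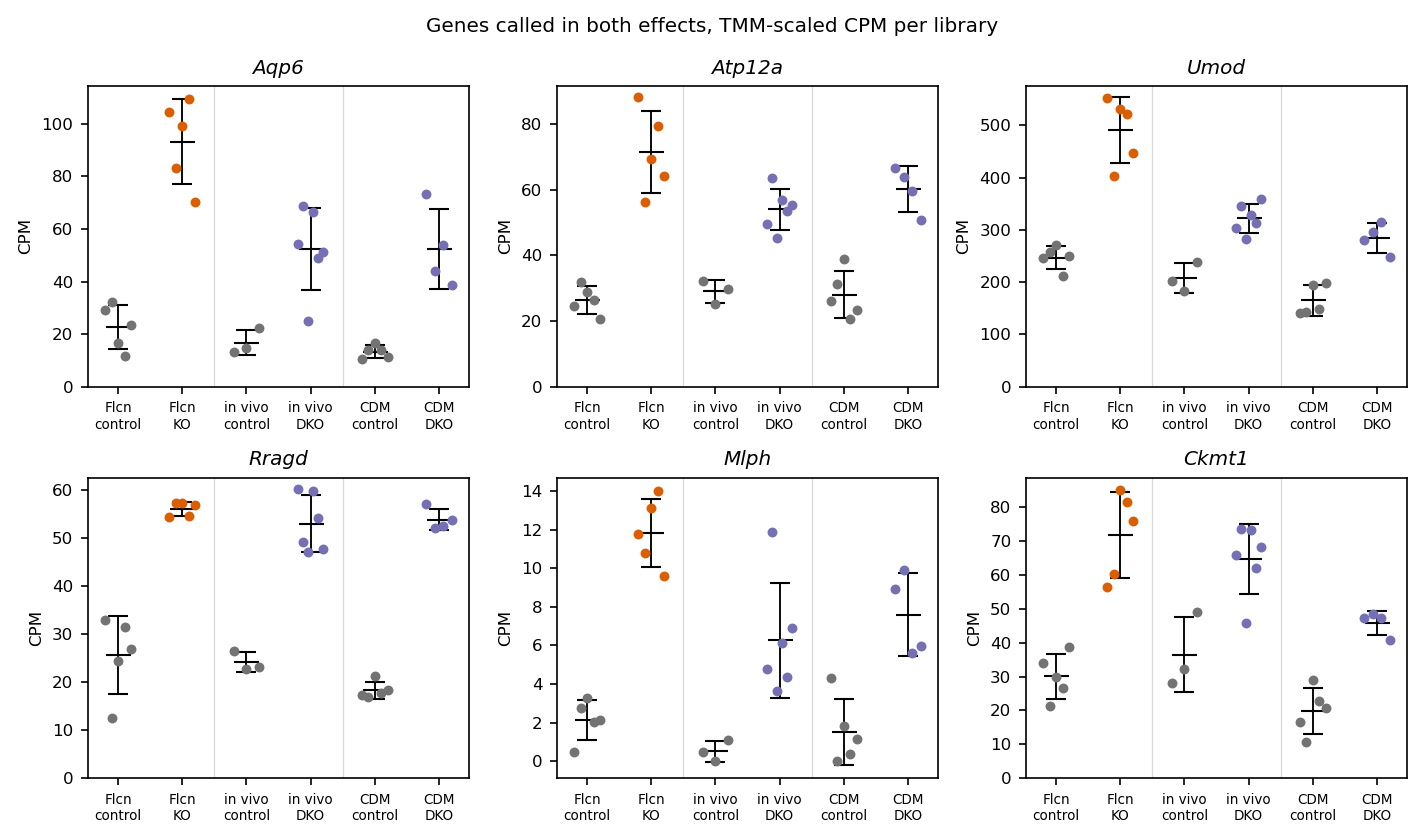
TMM-scaled CPM of Aqp6, Atp12a, Umod, Rragd, Mlph and Ckmt1 in every library (y axis, from 0) by group (x axis). Points are libraries and bars are the mean with the SD, for Flcn controls and Flcn KO (5 each), invivo controls and DKO (3 and 6) and CDM controls and DKO (5 and 4). Aqp6, Atp12a, Umod, Rragd and Mlph were higher in KO or DKO libraries without overlap in all 3 sets, and Ckmt1 overlapped in the invivo table.

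Of the Rag and mTORC1 genes, Rragd was the single member called, and it was called in both effects. It encodes RagD, one of the GTPases on which folliculin acts, and lies on chromosome 4 from 32983037 to 33022180 (mm10). Levels were 32.9, 12.5, 24.4, 31.4 and 26.9 CPM in Flcn controls and 54.4, 57.4, 57.3, 54.7 and 56.9 in Flcn KO. The 8 controls of the Flcn-Tfe3 cross held 17 to 26.5 CPM (median 19.9) and the 10 DKO libraries 47.1 to 60.3 (median 53.1). Thus the KO and DKO libraries reached nearly the same level, above all controls. The log2 fold change was 1.12 ± 0.16 (SE, adjusted p = 5.92e-05, edgeR) and 1.34 ± 0.12 (SE, adjusted p = 1.48e-08), and the difference was -0.22 (95% interval -0.62 to 0.18). The medians of the 18 genes of this list were 0.08 and 0.00.

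Melanosome and granule transport was represented by a small number of genes with large changes. Mlph encodes melanophilin, which links RAB27A on organelles to myosin, and lies on chromosome 1 from 90915085 to 90951142 (mm10). It was at 0.484 to 3.26 CPM in Flcn controls and at 11.8, 10.8, 13.1, 14 and 9.58 in Flcn KO, and at 0 to 4.33 (median 0.785) in the controls and 3.65 to 11.9 (median 6.04) in the DKO libraries of the other cross. Within each table the DKO libraries lay above the controls. The log2 fold changes were 2.45 ± 0.46 (SE, adjusted p = 0.00429, edgeR) and 2.71 ± 0.40 (SE, adjusted p = 8.82e-05), with a difference of -0.25 (95% interval -1.45 to 0.94).

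Rab27a, its partner GTPase, rose by 1.32 ± 0.28 (SE) and 1.38 ± 0.21. Slc24a5, an exchanger of pigment granules, rose by 2.11 and 1.66 from 1.37 ± 0.457 CPM (SD, n = 5) and 1.25 ± 1.13 (SD, n = 8) in the controls, and its Flcn KO call was lost in 9 of 39 other settings and its DKO call in 16 of 40. In this list of 23 tested genes, 5 were called in Flcn KO and 3 in DKO, with medians of 0.28 and 0.11. The other called members, Gpnmb and Snapin, are described below.

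Ckb, the cytosolic brain type of creatine kinase, rose by 0.94 ± 0.13 (SE) in Flcn KO and 0.86 ± 0.10 in DKO, and Ckmt1, the mitochondrial form, by 1.25 ± 0.19 and 0.99 ± 0.15. The interval of the difference was -0.25 to 0.41 for Ckb and -0.23 to 0.74 for Ckmt1. S100a14, a calcium-binding protein of epithelia, rose by 2.21 ± 0.26 in Flcn KO and 1.36 ± 0.20 in DKO. Its difference of 0.85 (95% interval 0.18 to 1.51, unadjusted p = 0.0146) was the largest among the 32 genes called in both and does not survive adjustment (adjusted p = 0.659, edgeR).

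Ctsd, the lysosomal protease cathepsin D, was the 1 gene called in both effects among 52 lysosomal hydrolases and activators. Flcn controls had 506, 424, 495, 420 and 469 CPM and Flcn KO 776, 725, 891, 896 and 772. The 8 controls of the other cross had 286 to 529 CPM (median 332) and the 10 DKO libraries 387 to 696 (median 534). The groups were apart in the Flcn cross and in the CDM table and overlapped in the invivo table. The log2 fold change was 0.81 ± 0.11 (SE) in Flcn KO and 0.41 ± 0.08 in DKO, and the difference of 0.40 had a 95% interval from 0.13 to 0.68 (unadjusted p = 0.00497, adjusted p = 0.659, edgeR).

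The 52 hydrolases and activators had medians of 0.06 in Flcn KO and 0.04 in DKO. At an unadjusted p under 0.05, 8 of them were higher and 1 lower in Flcn KO, and 1 was higher and 2 lower in DKO. The 43 genes of the lysosomal membrane and of sorting had medians of 0.08 and 0.01, with 0 called in either. At an unadjusted p under 0.05 (edgeR), 8 and 2 of them were higher and 0 and 1 lower. The 15 proton pump subunits found in most cells had medians of 0.20 and 0.11, with Atp6v1d called in DKO (0.46). At an unadjusted p under 0.05, 7 and 3 of them were higher and 0 and 1 lower (edgeR). Summed over these 15, Flcn KO held 3571 to 4059 CPM against 2702 to 3151 in controls, and the invivo DKO libraries 3233 to 3973.5 against 2814 to 3116. In the CDM table the ranges overlapped, with 2571 to 2748 in DKO and 2443 to 2862 in controls. The summed hydrolases behaved in the same way, apart in the Flcn cross (5048 to 5286 against 4064 to 4790.4) and in the invivo table (4514 to 4795 against 4244 to 4248) and overlapping in the CDM table (3592 to 3927.5 against 3499 to 3772). Summed genes of the lysosomal membrane and of sorting were lower in CDM DKO libraries without overlap (5375.5 to 5585.9 CPM against 5603.7 to 7317.5). Their mean log2 level relative to controls was 0.0006 there. The sums overlapped in the Flcn cross (6597 to 7817 against 5272 to 6740) and in the invivo table (5941 to 7252 against 5624 to 6161). Autophagy genes gave 0 calls among 45 in either effect, with medians of 0.05 and 0.08. At an unadjusted p under 0.05 (edgeR), 3 were higher in each effect and 1 was lower in Flcn KO.

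**Figure D3:**
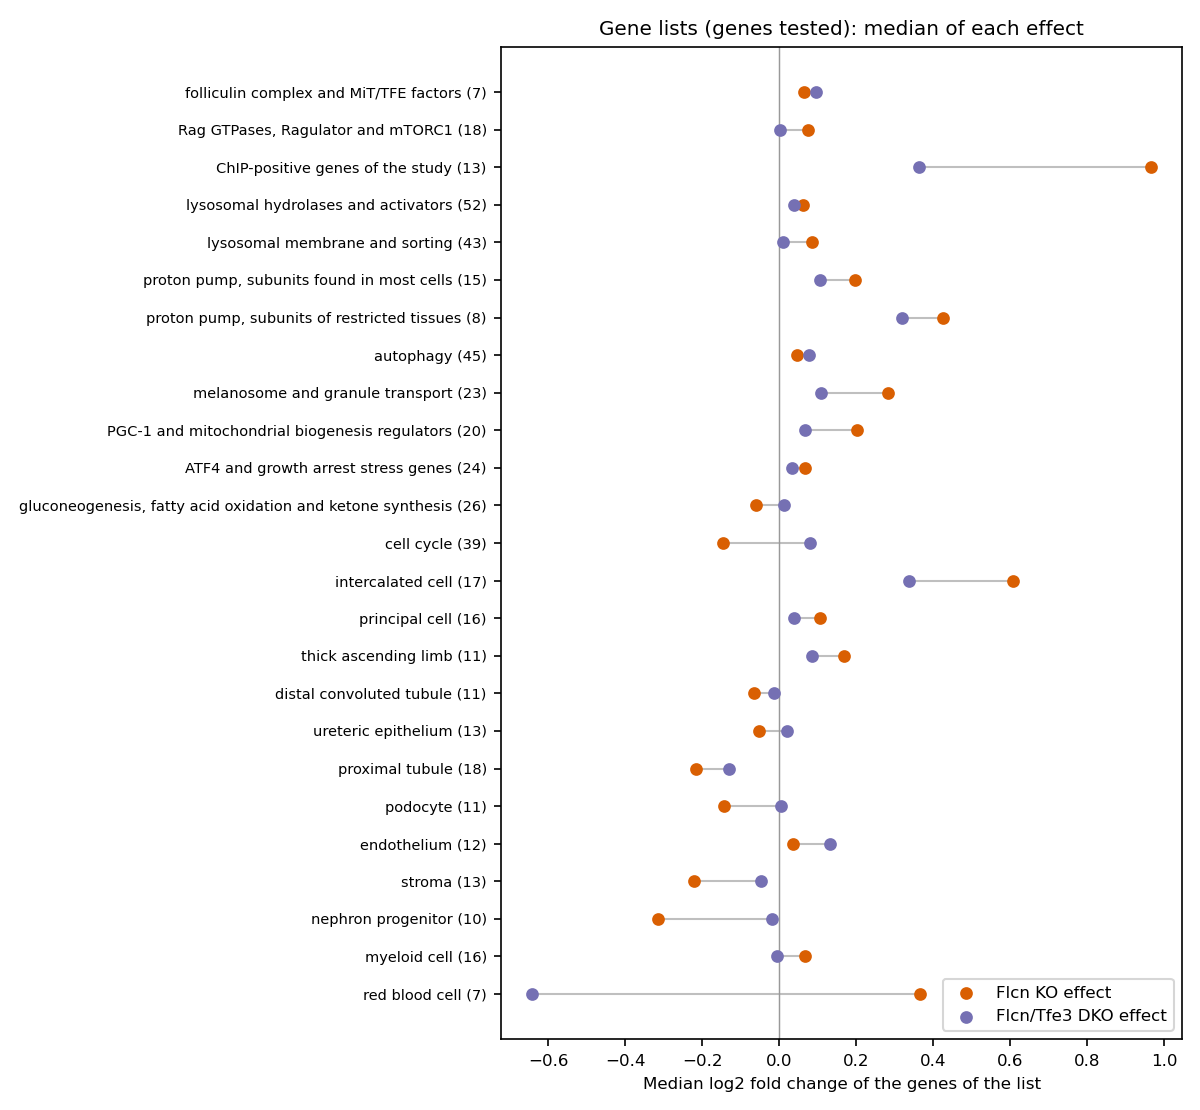
Median log2 fold change of the genes of each list (x axis) in the Flcn KO effect and in the Flcn/Tfe3 DKO effect, with the number of genes tested in brackets (y axis) and a grey line joining the 2 medians. The genes marked ChIP-positive by the study (0.97 and 0.36) and the intercalated cell markers (0.61 and 0.34) had the highest medians in both effects, and the red blood cell markers had medians of opposite sign (0.37 and -0.64).

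Genes that the study marked as positive in TFEB ChIP experiments were picked among transcripts increased in these Flcn KO libraries, so that their direction there is not independent evidence. Of the 13, all were above 0 in Flcn KO, 6 were called and the median was 0.97. In Flcn/Tfe3 DKO 12 were above 0, Gadd45a, Mlph and Rragd were called, and the median was 0.36. Gadd45a, a gene of growth arrest, was at 13.6 ± 2.43 CPM (SD, n = 5) and 23.0 ± 2.69 (SD, n = 5) in the Flcn cross and at 20.2 ± 3.0 (SD, n = 8) and 28.9 ± 4.36 (SD, n = 10) in the other. The 3 members called in Flcn KO alone were Gpnmb, Slc20a1 and Hsbp1l1. Vamp8, a SNARE of lysosome fusion, was the member below 0 in DKO (0.42 in Flcn KO, -0.10 in DKO, unadjusted p of the difference 0.00167).

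The remaining 33 genes called in Flcn KO were not called in DKO. The 26 that rose had medians of 1.0 in Flcn KO and 0.38 in DKO, where 24 were above 0 and 17 had an unadjusted p under 0.05. Among them Gdf15 was the gene with the smallest p for the difference of the effects over the whole table. It encodes a secreted stress factor of the TGF-beta family and lies on chromosome 8 from 70629393 to 70632456 (mm10). Flcn controls had 12.1, 17.1, 18.5, 6.39 and 11.8 CPM and Flcn KO had 30.9, 25.1, 29.2, 35.6 and 31.1, with no overlap. In the other cross the controls ran from 8.08 to 22.8 CPM (median 14.7) and the DKO libraries from 6.88 to 23.6 (median 13.2), so that these groups covered the same range. The log2 fold change was 1.24 ± 0.24 (SE, adjusted p = 0.00463, edgeR) in Flcn KO and -0.20 ± 0.18 (SE, adjusted p = 0.833) in DKO, with -0.09 in the invivo table and -0.32 in the CDM table. The difference was 1.43 with a 95% interval from 0.83 to 2.04 (unadjusted p = 2.95e-05, adjusted p = 0.337). It was called by DESeq2 (1.46, adjusted p = 0.0225), by edgeR with Xist as a covariate (1.59, adjusted p = 0.0255) and with the CDM table alone (1.59, adjusted p = 0.0332), and over all other settings its adjusted p reached 0.998.

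Gpnmb, a transmembrane glycoprotein of melanosomes and lysosomes and a known target of TFEB and TFE3, showed the largest Flcn KO effect of the genes called. It lies on chromosome 6 from 49036546 to 49070929 (mm10). Flcn controls had 0.484, 0, 0, 0.255 and 0.604 CPM, none with more than 2 counts, and Flcn KO had 13.7, 10.2, 13.5, 15.9 and 6.89. Against the floor of 3 counts per library, the mean of Flcn KO was at least 9.79-fold higher. In the invivo table the controls had 5.55, 0.727 and 1.09 CPM and the 6 DKO libraries 0 to 3.65, and in the CDM table the controls had 0.866, 0, 0, 0.770 and 0.391 and the DKO libraries 3.17, 2.20, 0.621 and 2.99.

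All Flcn KO libraries thus stood above all other libraries for Gpnmb, and the DKO libraries overlapped with their controls in both tables. In the CDM table the controls were again at the floor, and the mean of the DKO libraries was at least 1.64-fold higher. That bound holds for the mean only, since single libraries overlapped. The fitted difference of 4.36 (95% interval 2.40 to 6.32, unadjusted p = 7.43e-05, adjusted p = 0.337, edgeR) depends on control values near 0 and is no bound. It rests in part on the invivo control with 5.55 CPM, without which it was 3.3. Macrophages also express Gpnmb, and the summed level of 16 myeloid markers was 209.9 to 346 CPM in Flcn controls and 286 to 389 in Flcn KO. It was 288 to 497 in controls and 380 to 457 in DKO in the invivo table. In the CDM table it was 181 to 327 in controls and 164 to 213 in DKO. The part of macrophages in the result was not tested.

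Slc20a1, a sodium-dependent phosphate transporter, was at 63.4, 62.1, 41.3, 34.0 and 29.6 CPM in Flcn controls and at 122, 90.4, 86.5, 95.4 and 63.8 in Flcn KO, and at 32.1 to 44.8 (median 35.1) and 27.2 to 54.2 (median 45.7) in controls and DKO libraries. The lowest Flcn KO library lay just above the highest control, and the groups of the other cross overlapped. Its effects were 1.0 ± 0.19 (SE, adjusted p = 0.00492, edgeR) and 0.25 ± 0.15 (SE, adjusted p = 0.695), and the difference was 0.75 (95% interval 0.26 to 1.25, unadjusted p = 0.00374). Maoa, a mitochondrial monoamine oxidase, gave 0.99 ± 0.15 and 0.41 ± 0.11 (difference 0.58, 95% interval 0.19 to 0.97). For Rnf128, a ubiquitin ligase, the effects were 0.85 and 0.17, and for Snapin, a partner of SNARE complexes, 0.70 and -0.03.

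Ptgds, which makes prostaglandin D2, had DKO effects of opposite sign in the tables of the Flcn-Tfe3 cross, although the difference between the tables was not called. Levels were 17.9, 21.8, 15.8, 14.8 and 9.36 CPM in Flcn controls and 37.7, 34.1, 28.5, 46.4 and 34.4 in Flcn KO, a log2 fold change of 1.19 ± 0.24 (SE, adjusted p = 0.00700, edgeR). The DKO effect was 0.61 in the invivo table, where DKO libraries lay above the controls, and -0.58 in the CDM table. The joint DKO effect of 0.04 ± 0.19 therefore lies between opposite values, and the difference of 1.15 from Flcn KO was 0.60 against the invivo table and 1.80 against the CDM table.

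Of the 8 genes that fell in Flcn KO, 1 was also called lower in DKO. This was Pck1, the rate-limiting enzyme of gluconeogenesis. It was at 149, 171, 150, 143 and 176 CPM in Flcn controls and 102, 81.9, 58.8, 86.5 and 113 in Flcn KO, and at 225 to 433 (median 312) and 141 to 306 (median 185) in the other cross. The groups were apart in the Flcn cross and the invivo table and overlapped in the CDM table. The log2 fold changes were -0.84 ± 0.18 (SE, adjusted p = 0.0158, edgeR) and -0.65 ± 0.13 (SE, adjusted p = 0.0100), and the other 25 genes of gluconeogenesis, fat oxidation and ketone synthesis held 1 call, Hadhb, in DKO (0.48), which was lost in 20 of 41 other settings.

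For the 7 genes that fell in Flcn KO alone the medians were -0.88 and -0.22. Gstm1, a glutathione transferase, was at 100, 82.5, 97.8, 120 and 122 CPM in Flcn controls and 56.8, 59.2, 70.8, 61.0 and 83.5 in Flcn KO, overlapping by 1 library, with effects of -0.66 ± 0.13 (SE) and 0.08 ± 0.10 and a difference of -0.74 (95% interval -1.07 to -0.41, unadjusted p = 5.89e-05, adjusted p = 0.337, edgeR). Hspa1b, an inducible heat shock protein, fell by 1.05 on the log2 scale in Flcn KO and had 0.25 in DKO (difference -1.30, 95% interval -1.92 to -0.69), but its call in Flcn KO was lost in 28 of 41 other settings. Hspa1b also shares most of its sequence with Hspa1a, so its counts are uncertain. Klk1, a kallikrein of the distal nephron, had -1.44 and -0.58, and Clu, the secreted chaperone clusterin, -0.57 and -0.25.

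Ubb, a polyubiquitin gene 2.76 Mb from Flcn on chromosome 11, stood apart in its pattern among libraries. Flcn controls had 319, 25.0, 36.4, 367 and 380 CPM, Flcn KO had 15.3 to 41.3, and the 8 controls and 10 DKO libraries of the other cross had 34.2 to 377 and 35 to 105. Controls thus fell at a high and a low level, while every KO and DKO library was at or below 105 CPM. The log2 fold change was -3.07 ± 0.59 (SE, adjusted p = 0.00492, edgeR) in Flcn KO and -1.49 ± 0.41 (SE, adjusted p = 0.118) in DKO, and the groups overlapped in both crosses. Reads of Ubb can be shared with other ubiquitin genes, so its counts are uncertain.

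**Figure D4:**
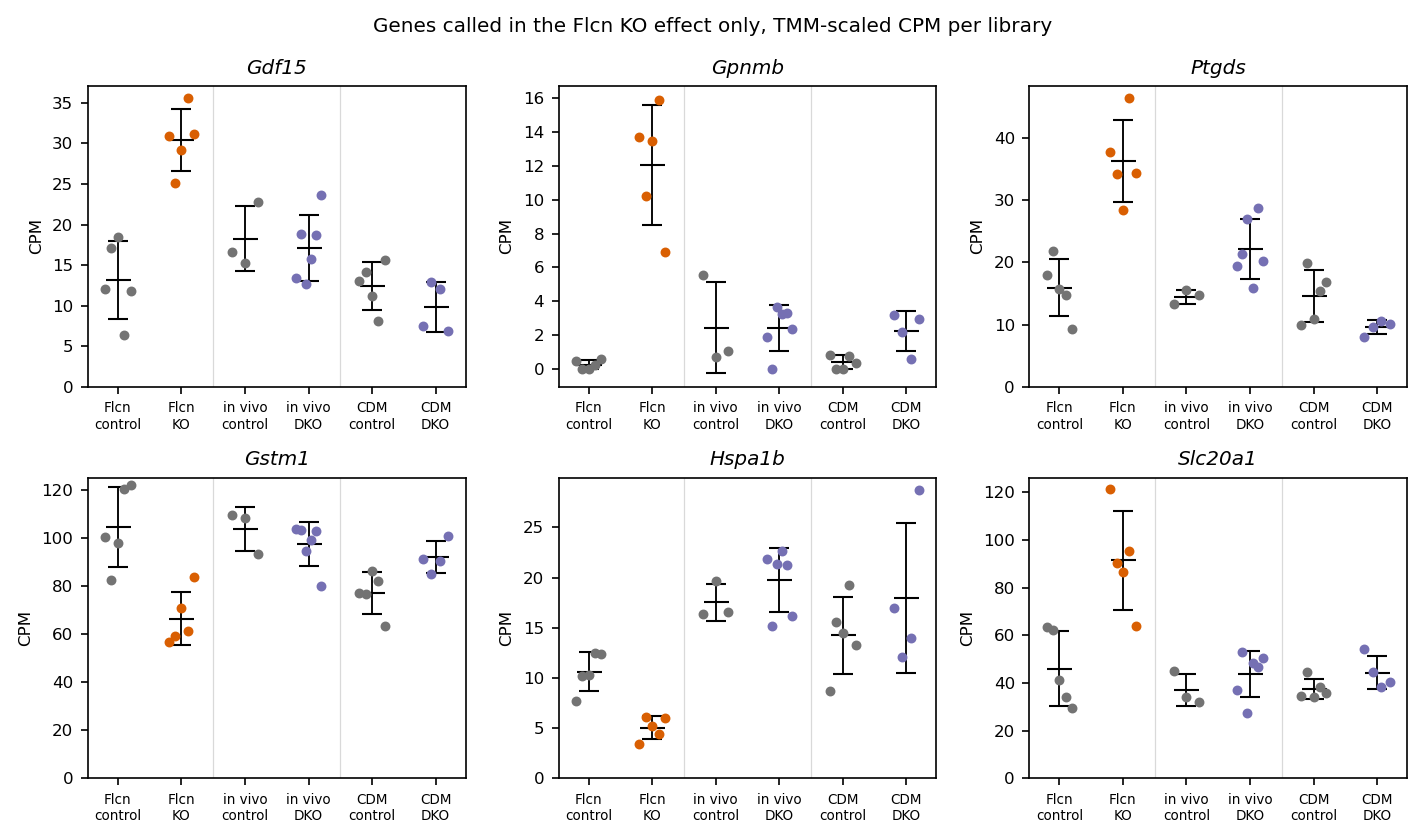
TMM-scaled CPM of Gdf15, Gpnmb, Ptgds, Gstm1, Hspa1b and Slc20a1 in every library (y axis) by group (x axis), with points for libraries and bars for the mean and SD. Gdf15, Gpnmb, Ptgds and Slc20a1 were higher in all 5 Flcn KO libraries than in all 5 Flcn controls, and Hspa1b was lower. In the Flcn-Tfe3 cross the DKO and control libraries overlapped in both tables for all of these genes but Ptgds, whose DKO libraries were above the controls in the invivo table.

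A further 33 genes were called in Flcn/Tfe3 DKO and not in Flcn KO, 28 higher and 5 lower. In the 28 the median was 0.63 in DKO and 0.49 in Flcn KO, where 27 were above 0 and 23 had an unadjusted p under 0.05. Slc26a7, an anion exchanger of acid-secreting intercalated cells, was at 8.66 to 19.5 CPM (median 11.9) in the 8 controls and 17.8 to 31.7 (median 25.8) in the 10 DKO libraries, apart in both tables. Its effects were 1.02 ± 0.15 (SE, adjusted p = 7.09e-05, edgeR) in DKO and 0.48 ± 0.19 (SE, adjusted p = 0.579) in Flcn KO, with a difference of -0.54 (95% interval -1.03 to -0.04, unadjusted p = 0.0340).

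Plin4, a coat protein of lipid droplets, was close to 0 in the controls of the Flcn-Tfe3 cross (0 to 0.783 CPM, at most 2 counts) and at 1.40 to 4.32 in DKO. Against the floor the DKO mean of Plin4 was at least 3.49-fold higher in the invivo table and at least 1.92-fold higher in the CDM table. In the Flcn cross Plin4 was at 1.09 to 4.17 CPM in controls and 2.94 to 6.99 in KO, overlapping. Controls of the crosses thus differed for this gene, and the difference of the effects (-1.71, 95% interval -2.94 to -0.49) depends on values near 0.

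Ppargc1a, which encodes the mitochondrial coactivator PGC-1alpha, and its partner Esrrg were also called in DKO. Ppargc1a rose by 0.63 ± 0.12 (SE, adjusted p = 0.00244, edgeR) in DKO and had 0.34 ± 0.15 in Flcn KO, and Esrrg had 0.71 ± 0.11 and 0.57 ± 0.15. For both genes the 95% interval of the difference held 0 (-0.68 to 0.10 and -0.52 to 0.24), and the DKO and control libraries overlapped in the invivo table. Among 20 genes of PGC-1 and mitochondrial biogenesis, 1 was called in Flcn KO (Ckmt1) and 3 in DKO (Ckmt1, Esrrg and Ppargc1a), with medians of 0.20 and 0.07.

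Of the 5 genes lower in DKO alone, Saa3, an acute phase protein, rests on a single library. The first invivo control held 84.1 CPM and the other 17 libraries of the cross 0 to 4.58, and without that control the DKO effect moved from -3.76 to -0.08. Ptger1, another receptor for prostaglandin E2, had -0.72 in DKO and -0.58 in Flcn KO. Genes near Tfe3 were also examined, since the null allele is carried in the germline. Of 45 genes tested within 5 Mb on chromosome X, 1 was called in DKO, Clcn5 (0.48 ± 0.11, SE, adjusted p = 0.0292, edgeR), a chloride transporter of endosomes, and the median was -0.03. Over all genes tested 0.477% were called in DKO. Before adjustment (edgeR), 6.67% of the 45 had a p under 0.05 in DKO, against 8.25% of all genes. In Flcn KO these shares were 15.6% and 6.63%. Clcn5 was at 0.38 ± 0.14 in Flcn KO, and its DKO call was lost in 16 of 41 other settings, among them the one with Xist as a covariate.

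Over the whole table, the 5 genes with the smallest p for a larger Flcn KO effect were Gdf15, Gpnmb, Srpx2, Hist1h1d and Smoc1, and the 5 for a smaller one were Gstm1, Hspa1b, Pdgfrb, Notch2 and Jup. None passed adjustment (edgeR, smallest adjusted p = 0.337). Srpx2, a secreted protein of blood vessel growth, had 0.71 in Flcn KO and -0.31 in DKO (difference 1.01, 95% interval 0.52 to 1.5). Pdgfrb, the receptor that marks stromal cells and pericytes, had -0.52 and 0.33 (difference -0.85, 95% interval -1.30 to -0.40). Of 13 stromal markers 0 were called in either effect (edgeR, with 3 lower in Flcn KO and 2 of opposite sign in DKO before adjustment), with medians of -0.22 and -0.05.

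Lists of other cells were also examined, and some had medians of opposite sign in Flcn KO and in DKO, as had all genes tested (-0.02 and 0.004). Podocyte markers had medians of -0.14 and 0.004 over 11 genes, ureteric epithelium -0.05 and 0.02 over 13, and myeloid cells 0.07 and -0.01 over 16. None of these was called (edgeR). In each of these lists the DKO value lies between opposite tables. Relative to controls of the same set, the mean log2 level of podocyte markers was -0.11 in invivo DKO and 0.08 in CDM DKO. It was -0.15 and 0.21 for ureteric epithelium and 0.16 and -0.28 for myeloid cells. In Flcn KO the values were -0.18, -0.21 and 0.21. At an unadjusted p under 0.05, 3 podocyte and 3 ureteric markers were lower in Flcn KO. Of the myeloid markers, 2 were higher in Flcn KO and 2 lower in DKO. The 7 tested markers of red blood cells were above 0 in Flcn KO (median 0.37) and 6 were below 0 in DKO (median -0.64), with 0 called in either by edgeR and, before adjustment, 1 higher in Flcn KO and 6 lower in DKO at a p below 0.05. Their summed level was 1446 to 1895 CPM in the CDM DKO libraries and 2133 to 7736 in the CDM controls, without overlap, but 3255 to 6167 in the invivo DKO libraries and 3674 to 5892 in the invivo controls, which overlapped. Proximal tubule markers were below 0 for 17 of 18 in Flcn KO (median -0.22) and 13 of 18 in DKO (median -0.13), with 0 called by edgeR and 4 and 3 below a p of 0.05 before adjustment, each decreased. Their summed level was 3491 to 3937 CPM in CDM DKO libraries and 4191.5 to 5399.9 in CDM controls, without overlap, and overlapped in the invivo table (4008.5 to 4852 against 4070.0 to 4983). Nephron progenitor markers had medians of -0.32 and -0.02 over 10 genes, where the DKO value lies between opposite tables. Their summed level had a median of 314 CPM in DKO and 361 in controls of the invivo table and of 377 and 277 in the CDM table. Distal convoluted tubule markers had medians of -0.07 and -0.01 over 11, with Stk39 called higher (0.52) and Klk1 lower in Flcn KO. The 24 genes of ATF4 and growth arrest had medians of 0.07 and 0.03, with Gadd45a called in both effects and Gdf15 in Flcn KO. Cell cycle genes had medians of -0.15 and 0.08 over 39 genes, again with 0 called by edgeR. Before adjustment 2 passed a p of 0.05 in Flcn KO, in opposite directions, and 1 in DKO. The mean log2 level of the cell cycle genes relative to controls also differed in sign between the tables. It was -0.06 in invivo DKO and 0.18 in CDM DKO, with -0.09 in Flcn KO.

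The tables of the Flcn-Tfe3 cross differed in what they called. In a fit of these 18 libraries with an effect for each table, 12 of 13370 genes were called in the invivo table (0.0898%), 11 higher (0.0823%) and 1 lower (0.00748%). Without invivo control replicate 1 that number was 1, and it was 1 to 16 over the fits that left out 1 library. The CDM table gave 566 calls (4.23%), 147 higher (1.10%) and 419 lower (3.13%), a number that ran from 154 without CDM DKO replicate 7 to 2112 without CDM control replicate 6. With the replicate number as a block the counts were 1 and 0. Replicate numbers 4, 5 and 6 join a CDM control to an invivo DKO library, so this block does not pair libraries within a table. The effects themselves differed between the tables for 112 genes (0.838%), 10 higher (0.0748%) and 102 lower (0.763%) in the CDM table. That count fell to 0 in 14 of the 18 fits that left out 1 library and reached 1606 in another. None of the 65 genes called in Flcn KO was among the 112. At the share of 0.838% over all genes, a list of this size would hold few or none. Of the 65, 55 had both tables on the side of the Flcn KO effect. For 20 of the 57 genes that rose in Flcn KO, the DKO libraries lay above the controls without overlap in both tables, which held for 0.250% of all genes tested. Mitochondrial counts were 3.01% to 7.80% in CDM controls and 2.72% to 4.27% in CDM DKO libraries, and reads aligned to several places 35% to 42.5% and 33.7% to 36.1%. With the mitochondrial share as a covariate in the joint fit, 56 of the 65 DKO calls and 63 of the 65 Flcn KO calls held. The part of these measures in the effect of the CDM table alone was not tested.

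**Figure D5:**
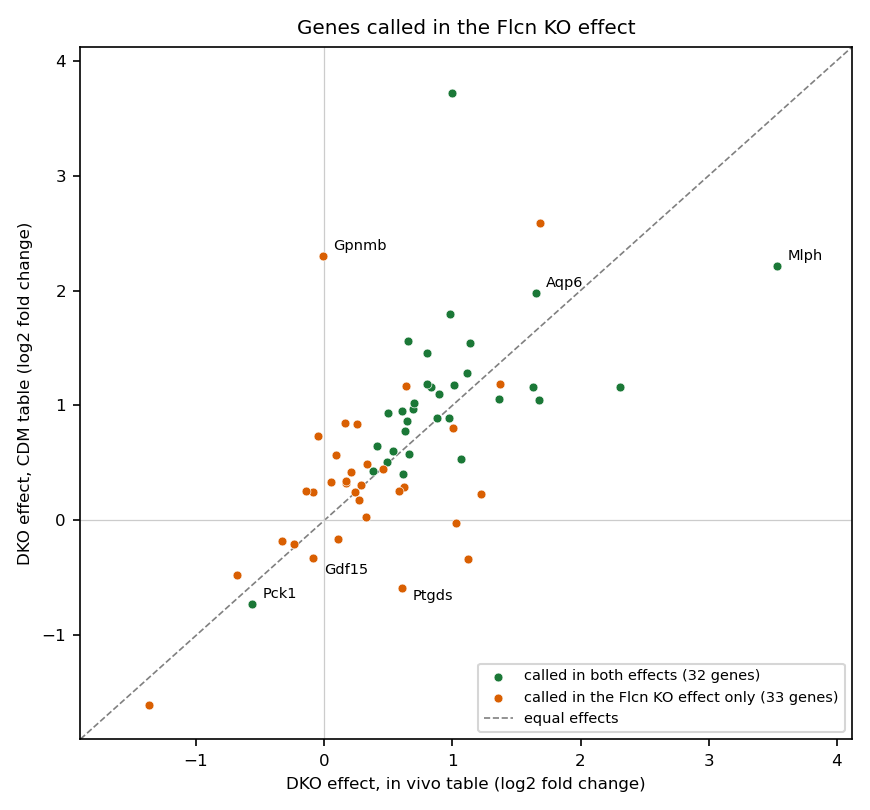
Flcn/Tfe3 DKO effect (log2 fold change) of the 65 genes called in the Flcn KO effect, in the invivo table (x axis) and in the CDM table (y axis). Each point is a gene, green where it was called in both effects and orange where it was called in Flcn KO alone, and the dashed line marks equal effects. The genes called in both are on the same side of 0 in each table, and Ptgds (0.61 and -0.58) is an example of a gene whose tables differ in sign.

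Calls kept under every other setting were counted over up to 41 alternatives of normalization, filter, model and libraries. Of the 32 genes called in both effects, 9 kept both calls throughout, namely Aqp6, Atp12a, Atp6v0d2, Ckb, Mlph, Plet1, Rragd, S100a14 and Slc16a7. Of the 33 called in Flcn KO alone, 7 kept that call (Atp6v1g3, Gdf15, Gpnmb, Maoa, Nrip3, Slc20a1 and Tmem61), and of the 33 called in DKO alone, 0 did. Direction was kept for all genes called in either effect when each library was left out in turn.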

How the data were processed

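RNA of whole kidneys was read by 3′ mRNA sequencing (QuantSeq, single-end). According to the study's methods and the submitters' processing notes, the authors trimmed reads, aligned them to mm10 (STAR) and assigned them to genes (HTSeq-count). Deposited values are unscaled counts for each gene. There was 1 column that matched no sample, which was not used. The labels call the replicates biological, without saying which share a litter.

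Groups were taken from the labels. In edgeR 4.0.16 (R 4.3.3) counts were filtered with filterByExpr (minimum count 10), scaled by TMM and fitted jointly over 28 libraries with a term for each set of controls (Flcn cross, invivo, CDM), 1 for the Flcn KO effect and 1 for the DKO effect, and tested with the quasi-likelihood F-test and Benjamini-Hochberg adjustment at 0.05. CPM are TMM-scaled, intervals are 95%, and SE are of the log2 fold change. A second fit of the 18 Flcn-Tfe3 libraries gave an effect per table. Alternatives were DESeq2 1.42.0, other scaling, filters, covariates, models and libraries, and each library left out. Fits were tested on simulated data. Gene coordinates are those of GENCODE M21, which held 99.6% of the genes.

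Members, gene lists and tests were chosen with earlier results of these data known. Named genes were the targets, the ChIP-positive genes, those with the smallest p in each class of calls, for the difference and in each list. Genes named outside these rules (such as Clcn5, Clu, Saa3, Slc24a5 and Ubb) were chosen after their values were seen.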

Additional observations from a re-analysis of the deposited data

Results flagged for a closer look

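In 34 named genes, 170 groups of libraries were searched for a library that stood far from the rest of its group. Dixon's criterion at 95%, which chance meets in about 5% of groups, was met in 10 cases. Some of these came from the same library. In Flcn controls, replicate 2 held 12.05 CPM of S100a14 against 5.43 to 7.25 in the others. Replicate 4 held 41.1 CPM of Notch2, a receptor of cell fate choice, against 24.4 to 28.7, and replicate 3 held 1.09 CPM of Smoc1, a secreted matrix protein, against 0.255 to 0.484. In Flcn KO, replicate 4 held 36.9 CPM of Esrrg against 44.3 to 46.1.

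In the Flcn-Tfe3 cross, CDM control replicate 8 held 36.8 CPM of Maoa against 23.4 to 26.9, and invivo DKO replicate 3 held 73.8 CPM of Egfl6, a secreted matrix protein called in both effects, against 88.4 to 95.1. Among CDM DKO libraries replicate 7 held 4.32 CPM of Plin4 against 1.92 to 2.17. Replicate 10 was apart for 3 genes, with 40.7 CPM of Ckmt1 against 47.2 to 48.3, 336 CPM of Rnf128 against 268 to 279, and 2.09 CPM of Smoc1 against 0.621 to 0.864.

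The DKO effect differed between the CDM and invivo tables for 112 genes at an adjusted p under 0.05 (edgeR, test of the difference itself). The cause was not tested.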

How the results depend on the processing

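No gene called by edgeR from all 28 libraries changed the direction of its called effect under any setting, but the balance of DKO calls did. For the Flcn KO effect, 1 term for all Flcn/Tfe3 controls left 42 genes called and a replicate block 28, and leaving out 1 library gave 46 to 72. For the Flcn/Tfe3 DKO effect, DESeq2 called 112 genes, the invivo table alone 24, the CDM table alone 881 (239 higher and 642 lower, against 59 and 6 from both tables) and a replicate block 11, and leaving out 1 library gave 47 (without CDM DKO replicate 7) to 109 (without invivo control replicate 3). The difference of the effects gave 1 gene by DESeq2, 1 with Xist as covariate, 459 with the CDM table alone and 0 to 0 with each library left out. Genes called in both effects numbered 16 with the invivo table alone, 9 with the replicate block and 24 to 36 with 1 library left out. The difference between tables gave 744 genes at an adjusted p under 0.1, 739 by DESeq2, 398 with no filter on low counts and 0 with the replicate block. With 1 library left out it gave 0 to 1606, namely 1606 without CDM control replicate 6, 721 without invivo DKO replicate 4, 203 without invivo DKO replicate 2, 98 without invivo control replicate 2 and 0 without any of the other 14. The causes were not tested. Same-numbered libraries had correlations of their deviations from -0.32 to 0.31, so the numbers were not taken to pair them. In the Flcn-Tfe3 cross, numbers 4, 5 and 6 also join libraries of different tables, which limits what the replicate block can show. In every leave-one-out fit 36 of 65 Flcn KO calls and 39 of 65 DKO calls held. Depth limits genes near the floor of 3 counts, such as Gpnmb, Plin4 and Mlph in controls.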
